A study of Polypterus senegalus with 8 samples.

Results

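The small RNA library of bichir pectoral fins at 14 days post-amputation (dpa) was compared with the library at 7 dpa, to ask how microRNA (miRNA) levels differed between the stage at which the blastema had formed and a later stage of outgrowth. These are 2 of the 8 libraries of the series, which holds 4 small RNA and 4 mRNA libraries, and all 153 miRNAs listed for them were examined. The bichir (Polypterus senegalus) is an early-branching ray-finned fish that regrows amputated fins. Both groups were intact animals from a pet supplier with no genotype, age or sex given, their pectoral fins were cut with scalpels under MS222 anesthesia, and the groups differed in the number of days since the cut. The 0 dpa small RNA library is of uninjured fins and the 3 dpa library of amputated fins. Both are used here for the abundance filter and as reference levels. The methods of the study describe each bichir library as a single replicate of pooled tissues, so no difference between stages has a replicate check, no test between groups was possible, and a difference between stages and a difference between libraries cannot be told apart.

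MiRNAs are short RNAs that guide Argonaute proteins to partly complementary sites in mRNAs and lower the output of those mRNAs. Most of the pairing specificity lies in the seed, bases 2 to 8 from the 5′ end, so that miRNAs with one seed can share many targets even where the rest of the sequence differs. The blastema is the mass of proliferating cells that rebuilds the appendage beneath a wound epidermis, and during outgrowth its cells turn back into cartilage, bone, muscle, vessels and connective tissue. Several miRNAs are known to be enriched in one of these tissues, such as miR-1 and miR-206 in skeletal muscle, miR-140 in cartilage, miR-203 and miR-205 in stratified epithelia and miR-150, miR-142 and miR-223 in blood cells.

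The sequences below are those on which the results turn, taken from the list of mature bichir miRNAs of the study and written 5′ to 3′ with the seed in capitals. The let-7 miRNAs are shown because 9 of them share a seed and lay in opposite directions.
let-7a: tGAGGTAGtaggttgtatagtt
let-7b: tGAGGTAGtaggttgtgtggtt
let-7c: tGAGGTAGtaggttgtatggtt
let-7d: tGAGGTAGttggttgtatagtt
let-7e: tGAGGTAGtagattgaatagtt
let-7f: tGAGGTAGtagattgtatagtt
let-7g: tGAGGTAGtagtttgtgctgtt
let-7h: tGAGGTAGtaagttgtattgtt
let-7j: tGAGGTAGttgtttgtacagtt

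The 4 miRNAs with the miR-30 seed and the pair of miR-99 and miR-100 are shown because the member with most reads of the seed changed between the stages.
miR-30b: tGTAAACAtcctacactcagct
miR-30c: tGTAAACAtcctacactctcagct
miR-30d: tGTAAACAtccccgactggaagc
miR-30e: tGTAAACAtcctcgactggaagc
miR-99: cACCCGTAgatccgatcttgtg
miR-100: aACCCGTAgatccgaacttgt

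MiR-1b and miR-206 of muscle, the miR-181 miRNAs and the miR-29 miRNAs are shown next because each set shares a seed and lay on 1 side of the median miRNA, and miR-150 because it was among the 8 largest decreases.
miR-1b: tGGAATGTaaagaagtatgtct
miR-206: tGGAATGTaaggaagtgtgtgg
miR-181a: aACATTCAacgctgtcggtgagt
miR-181b: aACATTCAttgctgtcggtgggt
miR-181c: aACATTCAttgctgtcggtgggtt
miR-29a: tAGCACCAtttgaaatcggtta
miR-29b: tAGCACCAtttgaaatcagtta
miR-150: tCTCCCAAcccttgtaccagtgt

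The 7 dpa library was shallow and stood apart from the other 3. It held 196763 miRNA reads, while the 14 dpa library held 6858045 and was 34.9 times deeper. The 3 dpa library held 3353354 and the uninjured fin 6083774. At 7 dpa 1 read was worth 5.08 CPM, which is the read count scaled to a common library size. No more than 3 reads were found for 20 of the 153 miRNAs in that library and for 4 in the 14 dpa library. For every pair of the 4 libraries the log2 differences of the 142 miRNAs that averaged 10 CPM or more over them were centred on their median, and the median absolute difference was 2.36 for the 7 and 14 dpa libraries. The 7 dpa library differed from that of 3 dpa by 2.20 and from that of 0 dpa by 1.83. Without the 7 dpa library the values were smaller, with 1.48 from 0 to 14 dpa, 1.16 from 0 to 3 dpa and 0.84 from 3 to 14 dpa. The 14 dpa library was thus nearest to the 3 dpa library and farthest from the 7 dpa library, and the part of depth in this was not tested. MiRNAs typical of epidermis (miR-203a), cartilage (miR-140), skeletal muscle (miR-206), endothelium (miR-126a) and blood (miR-142a) were detected at both stages.

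The 14 dpa library was more concentrated on its most abundant miRNAs. Of all reads, 90% were reached with 18 miRNAs at 14 dpa and with 35 miRNAs at 7 dpa, and the median level was 803 CPM at 7 dpa and 153 CPM at 14 dpa. Between 100 and 10000 CPM lay 104 miRNAs at 7 dpa and 72 at 14 dpa. Against library totals, 39 of 142 miRNAs (27.5%) were over 1.5-fold higher at 14 dpa and 86 (60.6%) over 1.5-fold lower, and the median miRNA was 1.47 lower on the log2(CPM + 1) scale. With the trimmed mean of log ratios as the scaling, 70 were higher and 61 lower, so changes below are log2 differences, 14 minus 7 dpa, relative to the median miRNA, with the 95% exact counting interval in brackets. On that scale 61 miRNAs (43.0%) were over 1.5-fold higher and 66 (46.5%) over 1.5-fold lower. With the whole counting interval past 1.5-fold there were 54 higher (38.0%) and 57 lower (40.1%), and 24 higher and 25 lower miRNAs were past 8-fold. Counting error was therefore small beside most of the differences, but it says nothing of the spread between animals. Levels are CPM of the library total throughout.

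**Figure D1:**
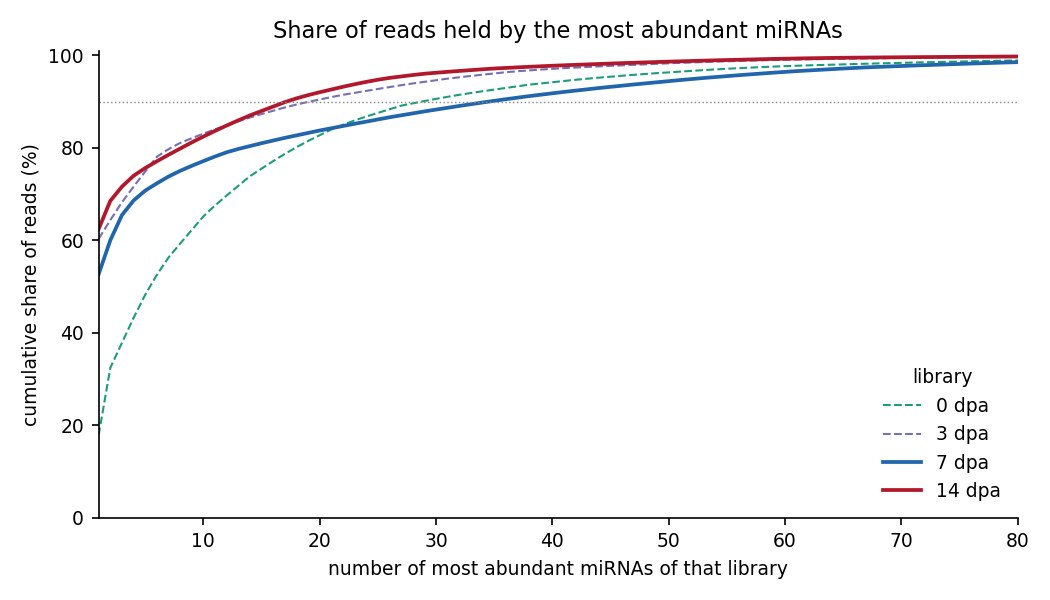
Cumulative share of miRNA reads (%, vertical axis) against the number of most abundant miRNAs of each library (horizontal axis), for the 7 and 14 dpa libraries (solid) and the 0 and 3 dpa libraries (dashed). The dotted line marks 90%, reached with 18 miRNAs at 14 dpa and 35 at 7 dpa.

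**Figure D2:**
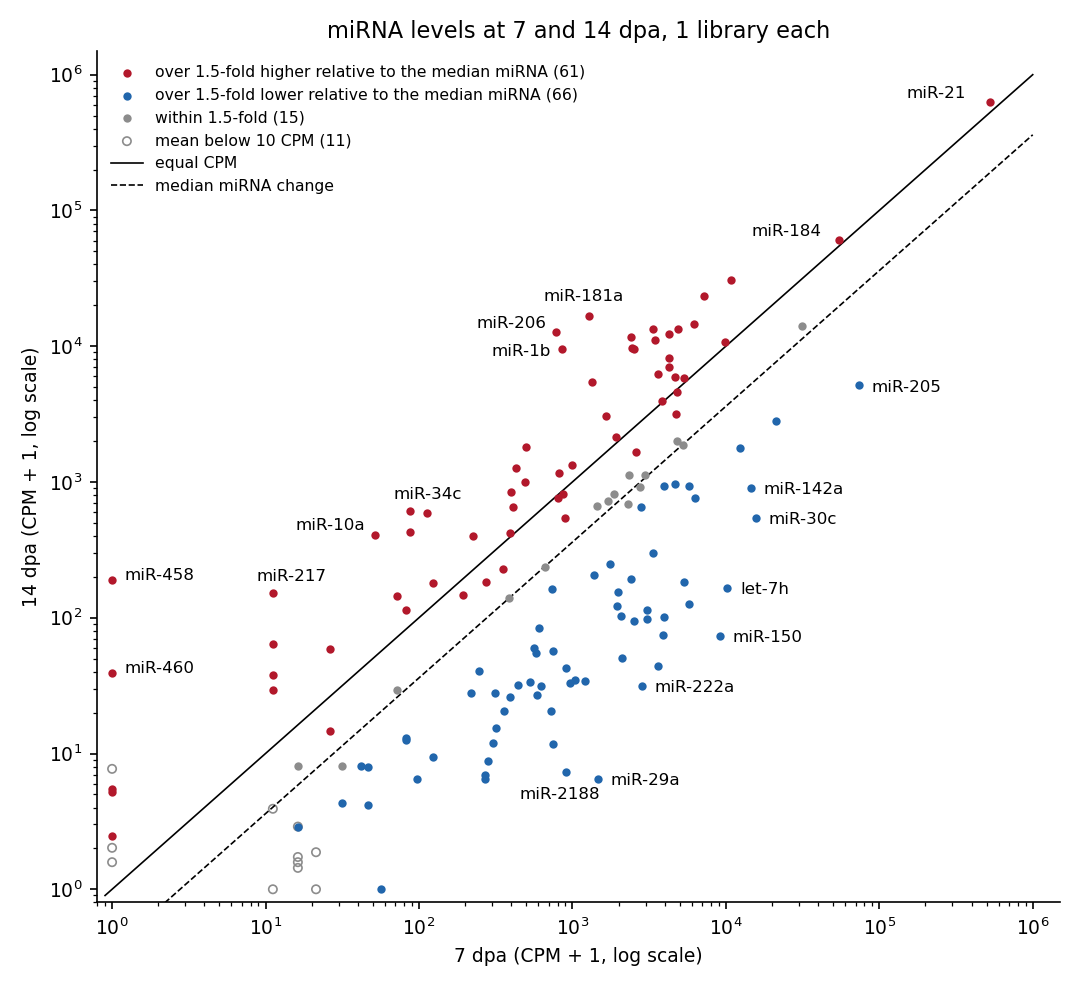
Level of each of the 153 miRNAs at 7 dpa (horizontal) and 14 dpa (vertical), as CPM + 1 on log axes, 1 library each. Points right of the dashed line of the median change were relatively lower at 14 dpa (66 miRNAs past 1.5-fold, blue) and points left of it relatively higher (61, red).

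The most abundant miRNAs were largely exchanged below the top ranks. Only miR-21, miR-184, miR-203a and miR-146a were among the 10 most abundant at both stages. MiR-21, which is known as an injury- and growth-associated miRNA, led both libraries with 103681 of 196763 reads at 7 dpa and 4284013 of 6858045 at 14 dpa, or 52.7% (52.5 to 52.9%) and 62.5% (62.4 to 62.5%) of reads. Its CPM differed 1.19-fold and its relative change was 1.72 [1.71 to 1.73]. MiR-184, an epithelial miRNA, stood at 54416 CPM at 7 dpa and 60700.2 CPM at 14 dpa, a relative change of 1.63 [1.60 to 1.66]. MiR-146a, which restrains inflammatory signalling, stood at 31541 and 14022 CPM, a relative change of 0.30 [0.27 to 0.34] that lay within 1.5-fold of the median miRNA.

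Let-7h, miR-130c, miR-142a, miR-200a, miR-205 and miR-30c were among the 10 most abundant at 7 dpa but not at 14 dpa. All of them were relatively lower at 14 dpa, against 46.5% of all counted miRNAs. Selection for leaving the top ranks favours a fall, so this is a description. MiR-205, an epidermal miRNA and the second most abundant at 7 dpa, had 14415 reads there and 35277 at 14 dpa, which is 73261 and 5144 CPM, and its relative change was −2.36 [−2.39 to −2.33]. At 0 and 3 dpa its level was 7840 and 4240 CPM, so the 7 dpa level was above those of the other 3 libraries. MiR-130c went from 12391 CPM to 1784 CPM.

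MiR-148, miR-181a, miR-206, miR-30d, miR-30e and miR-725 entered the 10 most abundant at 14 dpa, and all 6 were relatively higher, against 43.0% of all counted miRNAs. Selection for entry favours a rise in the same way. MiR-148 moved in rank from 15 to 6 with 1220 and 100016 reads, a relative change of 2.71 [2.62 to 2.79]. MiR-725, known mainly from fish, had 656 and 92127 reads, which is 3334 and 13433 CPM, and its relative change was 3.48 [3.37 to 3.59]. Of the 17 miRNAs whose mean reached 10000 CPM, 15 were relatively higher at 14 dpa and 1 was relatively lower, with a median of 2.93, against 43.0% and 46.5% of all counted miRNAs. That mean includes the 7 and 14 dpa libraries themselves. The 56 miRNAs between 100 and 1000 CPM lay the other way, with 19 higher, 35 lower and a median of −1.63.

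Muscle miRNAs did not move together. Their joint share was 0.265% (0.243 to 0.289%) of reads at 7 dpa and 2.24% (2.23 to 2.25%) at 14 dpa, against 24.8% at 0 dpa and 0.864% at 3 dpa. Relative to the median miRNA, 2 of the 5 were higher, 2 were lower and 1 was within 1.5-fold, with a list median of −0.01. These counts are near the 43.0% higher and 46.5% lower of all counted miRNAs. Here and in the other lists, more cells of a type and more RNA per cell cannot be told apart in these pooled tissues. The study's discussion describes bichir fins as lacking skeletal muscle, and which cells gave the muscle miRNA reads was not tested.

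MiR-206, the miRNA of skeletal muscle and its precursors, had 154 reads at 7 dpa and 86542 at 14 dpa, which is 783 and 12619 CPM, and its relative change was 5.48 [5.25 to 5.72]. MiR-1b, which promotes muscle differentiation, had 168 and 65097 reads, or 854 and 9492 CPM, and its relative change was 4.94 [4.73 to 5.17]. Both were far below their 0 dpa levels of 53833 CPM for miR-206 and 178922 CPM for miR-1b, and above their 3 dpa levels of 2789 and 5652 CPM. Their rank went from 78 to 10 for miR-206 and from 75 to 17 for miR-1b.

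MiR-133a, a partner of miR-1 in muscle that is known to act in zebrafish fin regeneration, had 130 and 1617 reads and followed the median miRNA, with a relative change of −0.01 [−0.27 to 0.26]. MiR-208, which is encoded in a myosin heavy chain gene in mammals, had 53 reads at 7 dpa and 41 in the deeper 14 dpa library, a relative change of −3.80 [−4.37 to −3.23]. MiR-499, also myosin-encoded in mammals, had 16 and 79 reads and a relative change of −1.25 [−2.01 to −0.39]. The higher muscle share at 14 dpa thus rested on miR-206 and miR-1b, which share a seed and whose summed level was 13.5-fold higher at 14 dpa.

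Leukocyte miRNAs were relatively lower at 14 dpa. Their joint share was 6.11% (6.002 to 6.21%) of reads at 7 dpa and 1.52% (1.51 to 1.53%) at 14 dpa, against 2.62% at 0 dpa and 3.96% at 3 dpa. Of the 5 listed, 4 were over 1.5-fold lower relative to the median miRNA, against 46.5% of all counted miRNAs, and miR-146a was within 1.5-fold. The list median was −2.56.

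MiR-150, a miRNA of mature lymphocytes, had 1789 reads at 7 dpa and 500 at 14 dpa, which is 9092 and 72.9 CPM. Its relative change of −5.47 [−5.62 to −5.33] was among the 8 largest decreases. MiR-223 of the myeloid lineage had 1055 and 1240 reads, or 5362 and 181 CPM, and miR-142a, listed in the study as the 3p arm of this blood miRNA, had 2890 and 6164 reads, or 14688 and 899 CPM. Their relative changes were −3.41 [−3.53 to −3.29] and −2.56 [−2.62 to −2.49]. MiR-155 of activated lymphocytes and macrophages had 77 and 171 reads and a relative change of −2.45 [−2.84 to −2.05].

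The red blood cell miRNAs differed from this pattern. MiR-451, which is needed for erythrocyte maturation, stood at 1448 and 662 CPM at 7 and 14 dpa and 4098 CPM at 3 dpa, with a relative change of 0.34 [0.17 to 0.52]. MiR-144 of the same transcript had 14 and 979 reads and a relative change of 2.47 [1.72 to 3.33]. Neither was relatively lower at 14 dpa.

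Skin and epithelial miRNAs were split between strongly measured members. The 4 skin miRNAs held 13.9% (13.7 to 14.0%) of reads at 7 dpa and 9.68% (9.66 to 9.71%) at 14 dpa. MiR-203a, which is induced as keratinocytes differentiate and is known to limit zebrafish fin regeneration, had 2134 and 210955 reads, or 10846 and 30760.2 CPM, and a relative change of 2.98 [2.91 to 3.04]. It became the third most abundant miRNA at 14 dpa, while miR-205 went from rank 2 to rank 24. Among the 4 miRNAs of the miR-200 family, which maintain the epithelial state, miR-200c (2.21) and miR-200b (2.02) were relatively higher. MiR-200a (−1.45) and miR-429a (−0.62) were relatively lower. The listed miR-200b is miR-200c extended by 3 bases, with 24 reads at 7 dpa against 833, so these are length variants of the same sequence. MiR-200a stood at 21381 CPM at 7 dpa and 2822 CPM at 14 dpa and carries a different seed from miR-200c, which stood at 4234 and 7042 CPM.

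Among vessel miRNAs, miR-143 and miR-145, which are processed from one transcript in mammalian smooth muscle, lay in opposite directions. MiR-143 had 263 reads at 7 dpa and 37541 at 14 dpa, or 1337 and 5474 CPM, and a relative change of 3.50 [3.33 to 3.69]. MiR-145 had 142 and 134 reads, or 722 and 19.5 CPM, and a relative change of −3.67 [−4.01 to −3.32]. The endothelial miR-126a, listed in the study as the 3p arm, stood at 224 and 396 CPM against 7796 CPM at 0 dpa, with a relative change of 2.29 [1.87 to 2.76].

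Of the cartilage and mesenchyme miRNAs, miR-140, which is enriched in chondrocytes, stood at 3634 CPM at 7 dpa and 6291 CPM at 14 dpa, a relative change of 2.26 [2.16 to 2.37], and had been at 30136 CPM at 0 dpa. MiR-455, also of cartilage, had 54 and 1253 reads and a relative change of 0.89 [0.50 to 1.31]. Its level of 274 CPM at 7 dpa and 183 CPM at 14 dpa was over 1.5-fold lower on library totals. MiR-214 and miR-199, which are transcribed together from an antisense RNA in mammals, were both relatively lower, with −2.65 [−3.07 to −2.22] for miR-214 and −1.14 [−1.24 to −1.05] for miR-199, listed in the study as miR-199c-5p. The 3 miRNAs that lie within Hox clusters were all relatively higher at 14 dpa, against 43.0% of all counted miRNAs. MiR-10a had 10 and 2801 reads and a relative change of 4.45 [3.59 to 5.49], miR-10b went from 832 to 83824 reads with 3.00 [2.90 to 3.10], and miR-196a went from 81 to 4469 reads with 2.13 [1.82 to 2.47].

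**Figure D3:**
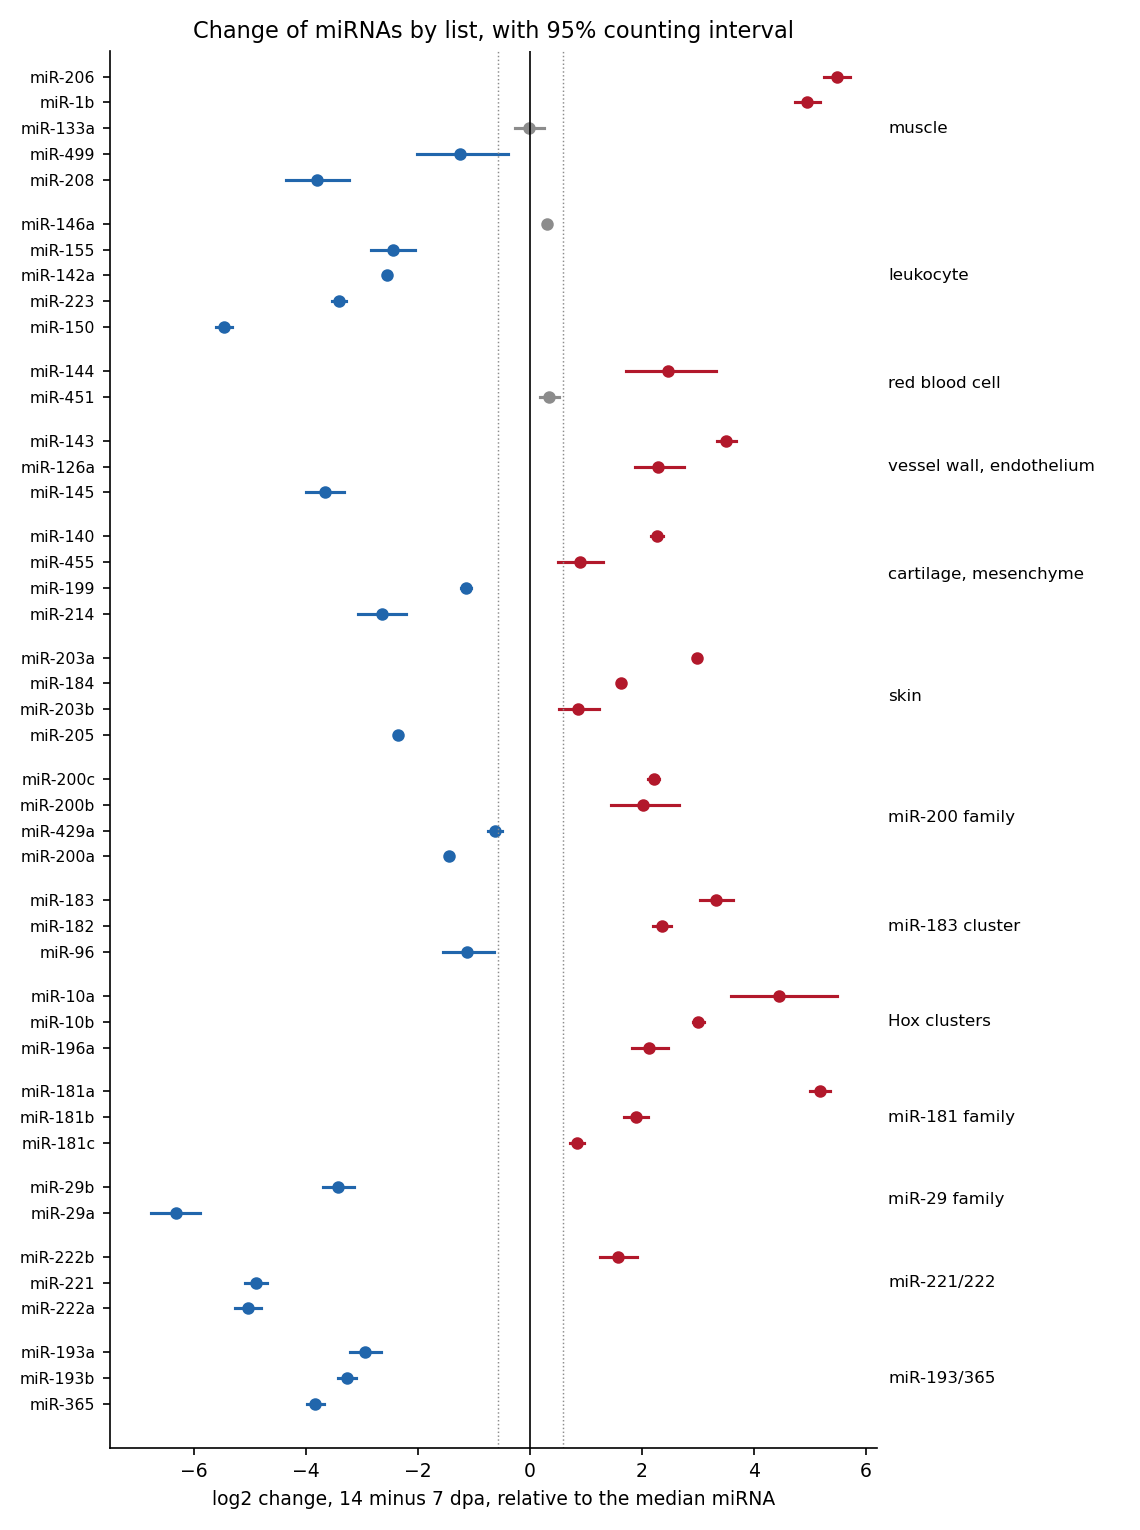
Log2 change from 7 to 14 dpa relative to the median miRNA (horizontal axis) of the counted members of 13 lists, with bars for the 95% counting interval and dotted lines at 1.5-fold. Red members were past 1.5-fold higher, blue lower and grey within it: miR-206 at 5.48 and miR-29a at −6.33 are the extremes shown.

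The study lists miRNAs as increased or decreased in common across its species. The increased list was split between directions here, and no member of the decreased list was relatively higher. Those lists were chosen partly on these libraries and are not independent evidence. Of the 5 listed as increased at the blastema stage, miR-181b (1.89), miR-21 (1.72) and miR-181c (0.84) were relatively higher at 14 than at 7 dpa, and miR-31 (−2.53) and miR-7b (−3.68) relatively lower. MiR-7b had 237 reads at 7 dpa and 226 at 14 dpa, or 1204 and 33.0 CPM, and miR-31, listed as its 3p arm, had 384 and 828 reads, or 1952 and 121 CPM. Of the 5 listed as decreased, miR-2184 (−4.52), miR-204 (−2.33), miR-338 (−1.18) and miR-24 (−0.81) were relatively lower still and miR-133a (−0.01) followed the median. On library totals all 5 of these were over 1.5-fold lower, and of the 5 listed as increased 3 were lower and 0 higher. This stands beside 60.6% lower and 27.5% higher of all counted miRNAs on that scale. Of all counted miRNAs, 43.0% were relatively higher and 46.5% relatively lower. MiR-2184 stood at 3548 CPM before amputation and 66.8 CPM at 3 dpa, then at 747 CPM in the 7 dpa library and 10.8 CPM in the 14 dpa library.

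On library totals the summed level of the let-7 miRNAs was close between the stages while its makeup was not. Let-7 miRNAs are known to hold back proliferation and to accumulate as cells differentiate. Together the 9 members stood at 42493 CPM at 7 dpa and 37685 CPM at 14 dpa, a 1.13-fold difference. The log2 change of the sum was −0.17, against −1.47 for the median miRNA, so the sum was higher relative to the median miRNA. Relative to the median miRNA, let-7a, let-7c, let-7d, let-7e and let-7f were higher and let-7b, let-7g, let-7h and let-7j were lower. This split stands beside 43.0% higher and 46.5% lower of all counted miRNAs. The 4 lower members held 44.9% (43.8 to 46.0%) of the let-7 reads at 7 dpa and 1.39% (1.34 to 1.43%) at 14 dpa. They held 3.75% (3.70 to 3.80%) at 0 dpa and 2.59% (2.49 to 2.69%) at 3 dpa. The 4 were grouped by their fall from 7 to 14 dpa, which favours a high share at 7 dpa, so these shares are descriptions.

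Let-7h had 2016 reads at 7 dpa and 1131 at 14 dpa, or 10246 and 165 CPM, and went from the leading let-7 to a minor one, with a relative change of −4.48 [−4.58 to −4.37]. Let-7j had 762 and 504 reads with −4.23 [−4.39 to −4.07], let-7g 499 and 641 reads with −3.28 [−3.45 to −3.10], and let-7b 476 and 1309 reads with −2.19 [−2.34 to −2.03]. Each of the 4 had its highest CPM of the 4 stages at 7 dpa. Let-7e, the leading let-7 at 14 dpa, had 684 and 76543 reads, or 3476 and 11161 CPM, with 3.15 [3.05 to 3.26]. Let-7c changed by 3.04 [2.73 to 3.37] and let-7d by 2.40 [2.30 to 2.50]. Let-7a (9931 and 10766 CPM) and let-7f (5316 and 5832 CPM) held nearly the same share of reads at both stages, with relative changes of 1.59 and 1.61.

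Members that lay in opposite directions differed by as little as 1 base. Positions are counted from 1 at the 5′ end, and the base of the miRNA named first is written first. Let-7b (−2.19) and let-7c (3.04) differ by G17A, let-7a (1.59) and let-7b by A17G and A19G, and let-7a and let-7h (−4.48) by G11A and A19T. Let-7c and let-7h differ by G11A and G19T, and let-7d (2.40) and let-7j (−4.23) by G12T and T18C. All these positions lie outside the seed. Near-identical miRNAs of this kind could share reads through sequencing errors or length variants, and the part of this was not tested.

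**Figure D4:**
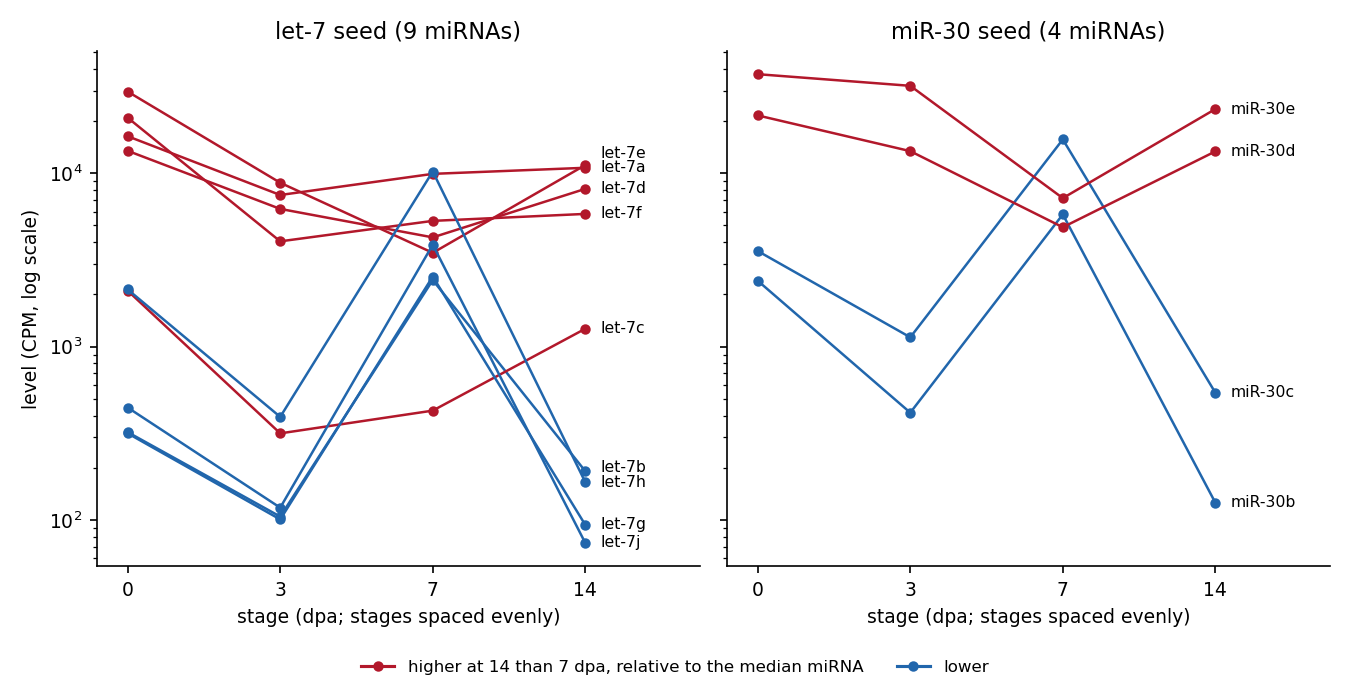
Level (CPM, log axis) of the 9 miRNAs with the let-7 seed and the 4 with the miR-30 seed at 0, 3, 7 and 14 dpa, 1 library a stage. The blue members, relatively lower at 14 than at 7 dpa, are at their highest at 7 dpa in each panel, as for let-7h with 10246 CPM at 7 dpa and 165 CPM at 14 dpa. Grouping by that fall favours such a peak.

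The miR-30 seed showed the same exchange. Its 4 members summed to 33563 CPM in the 7 dpa library and to 37549.7 CPM in the 14 dpa library. The log2 change of this sum was 0.16 on library totals, against −1.47 for the median miRNA. MiR-30b and miR-30c together held 64.0% (62.9 to 65.2%) of the reads of the seed at 7 dpa and 1.78% (1.73 to 1.83%) at 14 dpa, against 9.18% at 0 dpa and 3.29% at 3 dpa. As with let-7, these members were grouped by their fall, which favours a high share at 7 dpa. MiR-30c had 3088 reads at 7 dpa and 3715 at 14 dpa, or 15694 and 542 CPM, and a relative change of −3.38 [−3.45 to −3.31]. MiR-30b had 1140 and 861 reads and −4.05 [−4.17 to −3.92]. MiR-30e had 1415 and 161130 reads, or 7191 and 23495 CPM, with 3.18 [3.10 to 3.26], and miR-30d 961 and 91812 reads with 2.93 [2.83 to 3.02]. MiR-30d and miR-30e differ by C12T and changed alike. MiR-30a, deposited as the 3p arm and so of another seed, changed by 3.75 [3.62 to 3.88].

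The same was seen in smaller families. MiR-99 and miR-100, which have the same seed, stood at 2114 and 488 CPM at 7 dpa and at 49.3 and 1005 CPM at 14 dpa. MiR-99 thus held 81.2% (77.6 to 84.5%) of the reads of the pair at 7 dpa and 4.67% (4.20 to 5.19%) at 14 dpa, against 23.6% at 0 dpa and 4.99% at 3 dpa. Of the miR-34 miRNAs, which are targets of p53 in mammals, miR-34a had 191 and 219 reads and a relative change of −3.41 [−3.69 to −3.13], and miR-34c had 17 and 4172 reads and 4.27 [3.60 to 5.04]. MiR-34a held 91.8% (87.2 to 95.2%) of that pair at 7 dpa and 4.99% (4.36 to 5.67%) at 14 dpa, against 43.9% at 0 dpa and 29.9% at 3 dpa.

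The 3 miR-181 miRNAs, which act in lymphocyte and muscle differentiation, were all relatively higher but to different degrees, against 43.0% of all counted miRNAs. MiR-181a had 253 reads at 7 dpa and 114897 at 14 dpa, or 1286 and 16754 CPM, with 5.17 [4.997 to 5.36], and it held 26.4% (23.6 to 29.3%) of the reads of the seed at 7 dpa and 84.8% (84.6 to 85.0%) at 14 dpa. It held 74.4% at 0 dpa and 83.7% at 3 dpa. MiR-181b and miR-181c, one of which is the other extended by a base, changed by 1.89 [1.69 to 2.10] and 0.84 [0.71 to 0.97]. On library totals miR-181c was over 1.5-fold lower, at 2597 CPM at 7 dpa and 1670 CPM at 14 dpa, and miR-181b was within 1.5-fold. In the miR-15 and miR-16 seed, known for restraint of the cell cycle, miR-16b (0.90) was relatively higher. MiR-15a (−3.51), miR-457a (−3.51), miR-16a (−2.23) and miR-15b (−2.22) were relatively lower, against 46.5% of all counted miRNAs. MiR-16b held 43.7% (41.6 to 45.9%) of the reads of that seed at 7 dpa and 91.0% (90.6 to 91.4%) at 14 dpa, against 82.9% at 0 dpa and 86.8% at 3 dpa.

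Over all families, 22 seeds were carried by at least 2 of the 153 miRNAs, and the leading member was the same at 7 and 14 dpa in 13 of them and another in 9. The share of the reads of a seed that lay on other members, taken as the sum of the absolute differences of member shares divided by 2, had a median of 19.1% between 7 and 14 dpa. It was 24.6% from 3 to 7 dpa and 19.7% from 0 to 7 dpa. In the pairs that leave out the 7 dpa library it was lower, at 4.25% from 3 to 14 dpa, 9.45% from 0 to 3 dpa and 11.4% from 0 to 14 dpa. The makeup of seed families at 14 dpa was thus closer to that at 3 and 0 dpa than to that at 7 dpa.

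Pairs closer in sequence had smaller median differences in change. The 33 pairs of counted miRNAs within 2 edits and of the same seed differed by a median of 1.40 log2 units, the 99 pairs of the same seed by 1.93 and all 10011 pairs of counted miRNAs by 2.90. Pairs share members, so these medians are descriptions. In 7 of the 99 same-seed pairs the shorter sequence is the longer one cut short, and many pairs are of the let-7 seed. The part of this in the medians was not tested. Of the 33 close pairs, 22 differed by over 1 log2 unit and 7 lay in opposite directions past 1.5-fold. The median of all pairs, 2.90, is itself over 1 log2 unit. With 43.0% of counted miRNAs relatively higher and 46.5% lower, opposite directions are common among pairs of any kind. The 7 opposite pairs are therefore not read as a trait of close pairs. Beside the 5 let-7 pairs, the opposite pairs were miR-208 (−3.80) and miR-736 (2.77), and miR-454a (3.94) and miR-454b (−3.90).

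These last pairs are shown because they rest on few reads. MiR-208 and miR-736 differ by G10A and G19T, and the 21-base miR-454a is miR-454b without its last 2 bases.
miR-208: aTAAGACGagcaaaaagtgtgt
miR-736: aTAAGACGaacaaaaagtttgt
miR-454a: tAGTGCAAtattgcttatagg
miR-454b: tAGTGCAAtattgcttatagggt
MiR-736 had 10 reads in the 14 dpa library against a listed 0 at 7 dpa, and its interval of −1.58 to 2.77 included no change. MiR-454a had 31 reads against a listed 0, and its interval of −0.43 to 3.94 included no change too. Their opposite directions were therefore not detectable at this depth. The upper ends of both intervals equal the estimates, because with a listed 0 at 7 dpa they are set by the pseudocount and not by counting. MiR-454b itself had 53 reads at 7 dpa and 38 at 14 dpa, a relative change of −3.90 [−4.47 to −3.32].

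**Figure D5:**
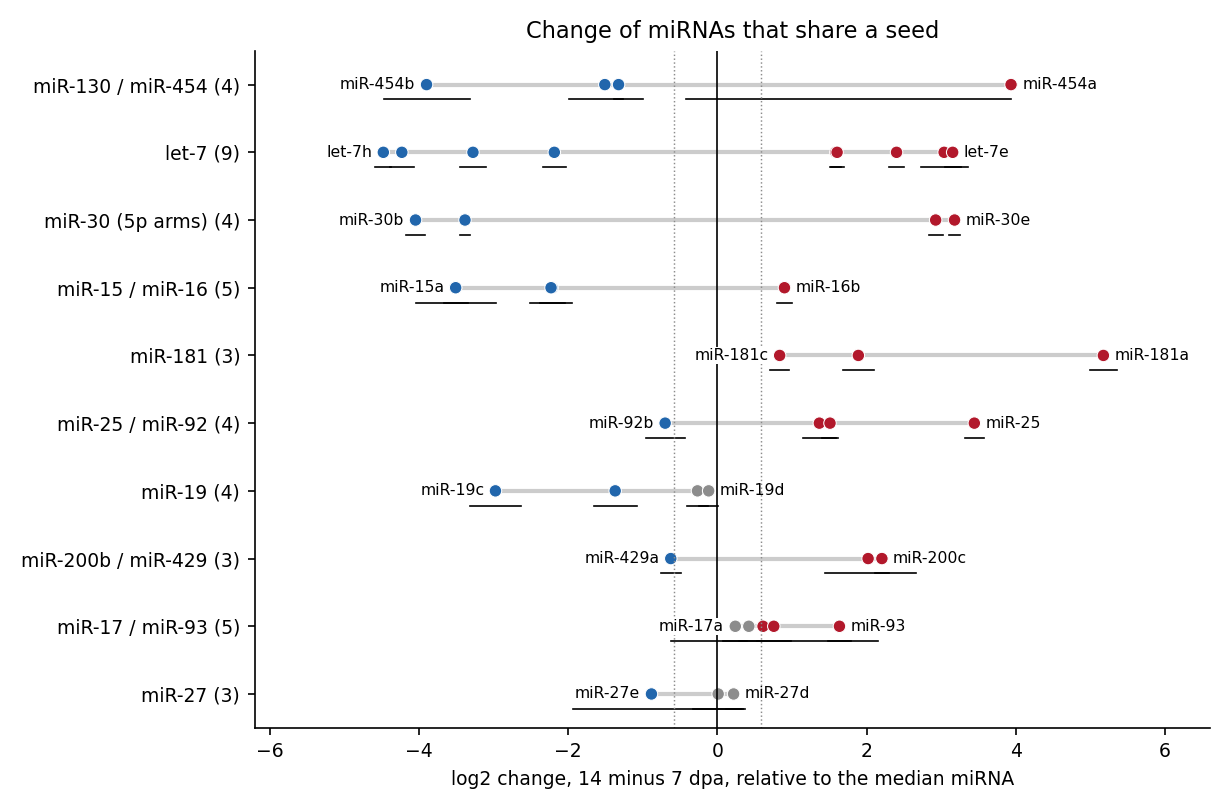
Log2 change from 7 to 14 dpa relative to the median miRNA (horizontal axis) of miRNAs that share a seed, for the 10 seeds with at least 3 miRNAs (number in parentheses), ordered by the spread within the seed. Points are miRNAs, thin black lines beneath them are 95% counting intervals, and the let-7 seed spans −4.48 to 3.15.

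The further large decreases given here were of miRNAs with their highest CPM of the 4 stages at 7 dpa, as had 45.1% of all counted miRNAs. Selection for a fall from 7 dpa favours such a peak. Among the relatively lower miRNAs given above, miR-2184, miR-145, miR-208, miR-204, miR-499, miR-338, miR-24 and miR-429a had their highest CPM before amputation. MiR-29a, of a family that holds back collagen and other matrix mRNAs, had 287 reads at 7 dpa and 38 at 14 dpa, or 1459 and 5.54 CPM, and its relative change of −6.33 [−6.77 to −5.90] was the largest decrease. MiR-29b, which differs from it by G18A, had 203 and 231 reads and a relative change of −3.42 [−3.70 to −3.15]. MiR-29a had stood at 349 CPM before amputation and at 64.4 CPM on day 3.

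MiR-2188, known from fish, had 178 and 43 reads, or 905 and 6.27 CPM, with −5.49 [−5.94 to −5.05]. MiR-2188 and miR-221 reached the mean of 100 CPM used for naming only through the 7 dpa library, which favours a fall. MiR-222a had 559 and 208 reads with −5.03 [−5.26 to −4.80] and miR-221, listed as the 5p arm, 714 and 294 reads with −4.90 [−5.10 to −4.70]. Both belong to a family known from vessels and proliferating cells, in which miR-222b, listed as the 5p arm, lay the other way at 1.57 [1.25 to 1.92]. Apart from its end, that sequence matches the zebrafish miR-222a 5p arm of the study and not its miR-222b 5p arm. It may thus be the other arm of miR-222a. MiR-365 (−3.83), miR-193b (−3.27) and miR-193a (−2.94), which share gene clusters in other vertebrates, were all lower, against 46.5% of all counted miRNAs. They stood at 3979, 3065 and 910 CPM at 7 dpa and at 99.7, 114 and 41.7 CPM at 14 dpa.

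Of the 66 relatively lower miRNAs, 52 had their highest CPM of the 4 stages at 7 dpa, and 39 still did once each library was centred on its median miRNA. Of the 61 relatively higher miRNAs, 33 had their lowest CPM at 7 dpa and 53 did after centring. These counts share the 7 dpa library with the comparison itself and are descriptions. Over all 142 counted miRNAs, 64 (45.1%) had their highest CPM at 7 dpa and 33 (23.2%) their lowest. After centring it was 39 (27.5%) and 63 (44.4%). At 14 dpa, 62 of the 66 lower miRNAs were below their 0 dpa CPM. Of the 61 higher miRNAs, 32 were below theirs and 29 above. The median log2 difference of all counted miRNAs from 0 to 14 dpa was −1.43 on library totals, so most of them were below their 0 dpa CPM. Centring sets the median miRNA to the same level in each library. After it, 47 of the 66 lower miRNAs were below their 0 dpa level and 48 of the 61 higher miRNAs above theirs.

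The large increases above a mean of 100 CPM also included miR-152, miR-192 and miR-458. MiR-152, a relative of miR-148 with the same seed, had 22 reads at 7 dpa and 4057 at 14 dpa with 3.86 [3.27 to 4.53]. MiR-192, of gut and kidney epithelia in mammals, had 17 and 2946 reads with 3.77 [3.10 to 4.54]. MiR-458, known mainly from fish, had 1304 reads in the 14 dpa library and is listed at 0 in the 7 dpa library. Its CPM was at least 12.5-fold higher when 3 reads are allowed at 7 dpa. At 0 and 3 dpa it stood at 724 and 89.5 CPM.

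MiR-460, also of fish, had 262 reads in the 14 dpa library and a listed 0 at 7 dpa, and was at least 2.51-fold higher on the same basis. MiR-217, a pancreatic miRNA in mammals, miR-730, miR-132 and miR-138 each had 2 reads at 7 dpa and 1035, 429, 253 and 195 reads at 14 dpa. Their relative changes had wide intervals of 3.48 to 7.56 for miR-217, 2.22 to 6.31 for miR-730, 1.46 to 5.57 for miR-132 and 1.10 to 5.20 for miR-138. On library totals the interval of miR-217 (2.01 to 6.09) and that of miR-730 (0.74 to 4.84) stayed above no change, while those of miR-132 (−0.01 to 4.09) and miR-138 (−0.38 to 3.73) included it. Of the 8 miRNAs listed at 0 at 7 dpa, only miR-458 and miR-460 allowed a lower bound above 1.

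The other lists held members in both directions or too few members. Of the 14 miRNAs of the miR-17 to miR-92 clusters, which promote proliferation in mammals, 7 were relatively higher, 3 lower and 4 within 1.5-fold, against 43.0% higher and 46.5% lower of all counted miRNAs, with miR-25 at 3.44 and miR-19c at −2.97 and a median of 0.52. On library totals 1 of them was higher and 9 were lower, against 27.5% and 60.6% of all counted miRNAs. Of the 7 miR-23, miR-24 and miR-27 miRNAs, 1 was higher and 3 lower, from miR-23a at −1.57 to miR-27a at 2.57. MiR-27a is deposited as the 5p arm and so has another seed than miR-27b, miR-27d and miR-27e, of which none was relatively higher. Of the 6 miR-130, miR-301 and miR-454 miRNAs, 5 were lower, with a median of −1.76, against 46.5% of all counted miRNAs. Among these 5, miR-130a is listed as miR-130c extended by 3 bases. In the miR-183 cluster of sensory cells, miR-183 (3.33) and miR-182 (2.36) were higher and miR-96 (−1.12) lower.

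The counts of the next lists stand beside 43.0% higher and 46.5% lower of all counted miRNAs. Among 5 miRNAs of the miR-26, miR-101 and miR-148 list, 3 were higher and 1 lower, with miR-26a at −0.61. Several of this list target chromatin-modifying enzymes in mammals. Of the 6 counted neural miRNAs, 3 were higher and 3 lower, from miR-218a at −2.23 to miR-132 at 3.23. Of the 4 miR-99, miR-100 and miR-125 miRNAs, 1 was higher and 2 lower. MiR-430c, of early fish embryos, had 9 reads at 7 dpa and 22 at 14 dpa, a relative change of −2.00 [−3.05 to −0.79], and miR-302 was below the abundance filter. MiR-430c stood at 2.63, 2.09, 45.7 and 3.21 CPM at 0, 3, 7 and 14 dpa. It thus passed the filter only through the 7 dpa library, which favours a fall. The same holds for miR-727, a lower member of the fish list with 11 reads at 7 dpa. Of the 15 counted miRNAs known mainly from fish, 7 were relatively higher and 7 lower, with a median of 0.48 that turned negative without depth scaling (−0.16), with a filter of 100 CPM (−1.75) and with a filter on the 7 and 14 dpa libraries (−0.56).

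Over the 142 counted miRNAs, which share their libraries, Spearman's rho with the relative change was −0.03 for GC content of the sequence and −0.08 for its length. By last base, the 59 miRNAs ending in T had a median of −1.32 with 19 higher and 38 lower. The 22 ending in C had a median of 1.56 with 12 higher and 7 lower. The 32 ending in G had a median of 0.82 with 18 higher and 9 lower. The 29 ending in A had a median of −0.04 with 12 higher and 12 lower. Of all counted miRNAs, 43.0% were relatively higher and 46.5% relatively lower. The 80 miRNAs of 22 bases had a median of 0.03, and the 6 miRNAs of 24 bases, miR-30c and miR-181c among them, a median of −2.91.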

How the data were processed

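Small RNA was sequenced at 0, 3, 7 and 14 dpa from pooled pectoral fin tissue, 1 library a stage. According to the methods, RNA was isolated with TRI Reagent and sequenced on a Genome Analyzer IIx, reads were clipped, trimmed and collapsed into tags with the FASTX Toolkit, tags of 20 to 25 bases were annotated with miRMiner against miRBase. A bichir genome build and tool versions, apart from the miRBase release, are not given in the sources used here. The authors deposited log2 values named as log CPM, but their powers of 2 were whole within 0.01% for 100% of the values over 0, and column sums differed, so they were read as log2 of unscaled reads. A listed 0 stands for 0 reads or 1 read and was read as 0. Whether length variants of a miRNA were summed cannot be seen in the deposited table.

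Reads were divided by the library total (CPM), and the change was log2(CPM + 1) at 14 minus 7 dpa, a scale that understates changes of low miRNAs. Relative changes subtract the median over miRNAs that averaged 10 CPM or more in the 4 libraries. The threshold was 0.58, or 1.5-fold. With 1 library a side there was no test. Intervals are exact Clopper-Pearson at 95%, for counting error only, since amplified reads are not independent molecules. For a miRNA listed at 0 in either library, the CPM + 1 scale sets the interval end on that side. Seeds and edits came from the study's mature sequences, matched for 153 of 153 miRNAs, several of which that list names as the other arm. No miRNA coordinates are given. Named miRNAs were the 10 most abundant of each library, the 8 largest increases and decreases among those averaging 100 CPM or more with the whole interval past 1.5-fold, those with 3 reads or fewer at one stage and at least 100 at the other, opposite pairs of a seed within 2 edits, and list members. Members and lists were chosen with earlier results of these data known. The mRNA libraries were not used. Python 3.11.15, numpy 2.4.6, scipy 1.17.1, pandas 2.3.3 and matplotlib 3.10.9 were used, and the code was tested on simulated counts. The alternatives were trimmed mean of log ratios (30% of ratios and 5% of abundances trimmed at each end), median of ratios, totals without miR-21, unscaled values, pseudocounts of 0.1 and 5 CPM, other filters, counts scaled to the 7 dpa total, a listed 0 read as 1 read, a threshold of 1 and the whole interval.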

Additional observations from a re-analysis of the deposited data

How the results depend on the processing

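Scaling decided the changes on library totals. With the trimmed mean of log ratios the median miRNA change went from −1.47 to 0.53 and 70 miRNAs were higher, with the median of ratios it was 0.46 and 69 were higher, and without miR-21 in the totals it was −1.14. With unscaled values it was 3.62, with 117 miRNAs higher and 9 lower, as the deeper library dictates. Relative to the median miRNA the counts stayed between 51 and 64 higher and between 56 and 72 lower under every alternative run. Subtracting the median removes any factor common to all miRNAs. The scaling settings could therefore move these counts and the relative changes only through the pseudocount, and are no check of them. The median of the neural list turned from 0.81 to −1.93 with a filter of a mean of 100 CPM, which leaves fewer members. That filter also turned the skeletal list from −0.13 to 0.89 and the fish list from 0.48 to −1.75. The fish median was −0.56 with the filter on the 7 and 14 dpa libraries and −0.16 without depth scaling. The muscle median, which is miR-133a, went from −0.01 to 0.01 without depth scaling, 0.03 without a filter and 0.07 with the filter on the 7 and 14 dpa libraries. Of the 129 named and list miRNAs run, only miR-133a, with those values, and miR-736, at −0.16 without depth scaling, changed sign on the relative scale. No paired analysis was possible because each stage has 1 library and no replicate number ties libraries of 2 stages. Depth limits the 20 miRNAs with 3 reads or fewer at 7 dpa, and no setting replaces a replicate.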
